A study of Homo sapiens with 3 samples.

Results

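The 26S proteasome is the protease that degrades proteins tagged with ubiquitin. Its 20S core is a barrel of alpha and beta rings whose beta subunits carry the proteolytic sites, and its 19S cap recognises, deubiquitinates and unfolds the substrate. The proteasome subunit genes described here are the 43 of 35851 rows of the deposited table that carry the symbol of a PSMA, PSMB, PSMC, PSMD, PSME or PSMF gene. The rule uses the gene symbol alone, although the family was taken up with earlier results of these data known. They comprise 7 genes of the alpha ring, 7 of the constitutive beta ring, 3 inducible beta subunits, the thymic beta subunit PSMB11, 6 ATPases and 3 other subunits of the 19S base, 8 subunits of the 19S lid, 3 chaperones of 19S assembly, 4 activator genes and the inhibitor gene PSMF1. Cells hold the subunits of the complex in fixed proportions, and their genes are known to be raised together by the transcription factor NFE2L1 when proteasome activity is short.

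The samples were 5637 cells, a human bladder cancer line, in which MYBL2 was knocked down with siRNA for 2 libraries, siMYBL2-1 and siMYBL2-2, beside 1 library with a control siRNA, siNC. MYBL2 is a transcription factor of late cell cycle genes. All 3 cultures were transfected with a lipid reagent and are labelled as wild type, and no untransfected cells were used here. Whether siMYBL2-1 and siMYBL2-2 are separate siRNA sequences or repeats is not stated, nor is whether the cultures were independent. The p-values rest only on the spread between the 2 siMYBL2 libraries, pooled in part over all genes tested, because siNC has 1 library. That spread may be technical. MYBL2 itself was at 46.0 RPKM in siMYBL2-1 and 56.3 RPKM in siMYBL2-2, against 211 RPKM in siNC (limma log2 change -2.03, SE 0.30, adjusted p 0.153). RPKM are reads per kilobase of exon, scaled by the assigned reads of the library, which numbered between 40259436 and 46177658. The 10 epithelial and urothelial marker genes were all above a mean of 1 RPKM, with summed levels of 3031 and 2402 RPKM in the siMYBL2 libraries and 2901 RPKM in siNC. These sums hide differences of single markers, such as CDH1 at 36.2 and 8.98 RPKM in siMYBL2 and 14.8 RPKM in siNC. Both siMYBL2 libraries lay above siNC for 4 of the 10 and below it for 4 (29.7% and 36.4% of all genes tested). For CDH1 and EPCAM siNC lay between them (33.9% of all). The 5 immune markers measured summed to between 0.320 and 0.367 RPKM. The 4 endothelial markers summed to 0.277 and 0.0988 RPKM in siMYBL2 and 0.0937 RPKM in siNC, and the 5 fibroblast markers to 2.04 and 1.34 RPKM in siMYBL2 and 1.51 RPKM in siNC, nearly all of it COL1A1.

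Short promoter windows are shown for 4 of the genes because they illustrate the element by which NFE2L1 and its relatives bind DNA, the antioxidant response core TGACNNNGC. PSMD12 and PSMD3 hold it and are lid genes whose levels were higher in both siMYBL2 libraries than in siNC, PSMB9 holds it and is an inducible subunit that was lower in both, and PSMD10, which differed most between the siMYBL2 libraries, does not hold it. The windows are RefSeq sequences of GRCh38.p14, 250 bases before to 50 bases after the annotated start site, written 5′ to 3′ on the strand of the gene. Capitals mark the antioxidant response core and the CCAAT box, a site of the factor NF-Y, on either strand.
PSMD12 (chr17:67366528-67366827, minus strand): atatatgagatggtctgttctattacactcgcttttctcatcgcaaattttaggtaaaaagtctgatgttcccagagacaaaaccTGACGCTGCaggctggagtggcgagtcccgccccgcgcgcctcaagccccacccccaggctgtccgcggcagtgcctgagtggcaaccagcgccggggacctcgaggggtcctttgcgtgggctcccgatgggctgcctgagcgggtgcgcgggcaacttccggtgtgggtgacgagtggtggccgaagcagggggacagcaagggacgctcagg
PSMD3 (chr17:39980557-39980856, plus strand): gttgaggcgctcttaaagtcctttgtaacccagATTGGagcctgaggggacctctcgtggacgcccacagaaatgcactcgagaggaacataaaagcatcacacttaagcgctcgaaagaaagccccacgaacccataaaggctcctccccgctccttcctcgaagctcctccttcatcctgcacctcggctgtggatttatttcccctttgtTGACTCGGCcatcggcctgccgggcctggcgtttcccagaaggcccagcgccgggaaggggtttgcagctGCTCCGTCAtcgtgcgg
PSMB9 (chr6:32853942-32854241, plus strand): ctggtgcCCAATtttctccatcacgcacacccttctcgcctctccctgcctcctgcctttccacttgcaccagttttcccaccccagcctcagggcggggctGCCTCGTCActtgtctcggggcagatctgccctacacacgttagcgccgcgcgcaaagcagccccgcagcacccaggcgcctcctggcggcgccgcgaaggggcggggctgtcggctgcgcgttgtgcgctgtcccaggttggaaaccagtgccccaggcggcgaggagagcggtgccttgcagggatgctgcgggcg
PSMD10 (chrX:108091493-108091792, minus strand): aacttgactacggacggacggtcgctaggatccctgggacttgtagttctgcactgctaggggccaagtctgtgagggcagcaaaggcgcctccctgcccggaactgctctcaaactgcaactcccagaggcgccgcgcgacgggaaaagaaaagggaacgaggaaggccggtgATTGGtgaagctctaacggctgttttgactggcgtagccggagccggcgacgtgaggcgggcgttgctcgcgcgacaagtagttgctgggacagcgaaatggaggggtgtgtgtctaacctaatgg

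In PSMD12 the core began at position -165 from the start site, and in PSMD3 one match began at -37 and another, on the reverse strand, at 34. PSMB9 had it on the reverse strand with its leftmost base at -148, and PSMD10 had only a CCAAT box, on the reverse strand at -76. Windows were found for 38 of the 43 genes, 46 windows in all because some genes have several start sites. The core was present in 13 of the 46 windows (28.3%), against 13.3% of all 35116 windows of the table. The CCAAT box was in 41.3% of the proteasome windows and 34.6% of all, the E-box CACGTG in 6.52% and 7.26%, and the cell cycle homology regions TTTGAA and TTTAAA, letters of the element that MuvB complexes bind, in 15.2% and 2.17%, against 15.2% and 12.2% of all windows. Both strands were searched, and no occurrences of one motif were removed for overlapping another. The PSMB9 start site lies 10056 bases inside the 5′ end of its row in the deposited table. Such matches describe the letters in these windows and not binding. The 13 genes with the core in a window had a median log2 change of -0.03, and the 24 tested genes whose windows lacked it had 0.02.

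As a group the proteasome subunit genes were close to their siNC level in the siMYBL2 cells. Log2 changes and ratios were taken on log2(RPKM + 1), a scale that understates differences of low genes, and the change is the mean of both siMYBL2 libraries minus siNC. Of the 43 genes, 42 averaged 1 RPKM or more and entered the test, limma-trend fitted to all 13274 genes above that level. None of the 42 passed an adjusted p of 0.05 in either direction, against 0.00753% of all genes tested called higher and 0% called lower, and none had an unadjusted p under 0.05, against 4.71% of all genes. The smallest adjusted p of the 42 was 0.999 by limma with Benjamini-Hochberg adjustment. Their log2 changes lay between -0.24 and 0.40, with a median of -0.02, beside a median of -0.03 for all genes tested. In size, 40 of the 42 lay within 1.25-fold of siNC on this scale, all but PSMD12 and PSME3, against 72.3% of all genes tested and 71.4% of the 6353 genes that averaged 5 RPKM or more. With a pseudocount of 0.1 the count was 38, and with limma-voom on the recovered reads or scaling by the median ratio it was 37, with the lowest log2 change at -0.45 (PSMB9) by limma-voom. The median size of the log2 change was 0.11 for the proteasome genes and 0.19 for all genes tested. Ratios of opposite sign cancel in this mean, as for PSMD10 (-0.75 and 0.41) and PSMB10 (0.53 and -0.08). For 45.2% of the proteasome genes siNC lay between the siMYBL2 libraries, against 33.9% of all genes tested. In siMYBL2-1 and siMYBL2-2 taken singly, the median size of the log2 ratio was 0.14 and 0.08 for the proteasome genes. For all genes tested it was 0.26 and 0.18. In bulk RNA, less RNA per cell cannot be told apart from fewer cells that express a gene.

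**Figure D1:**
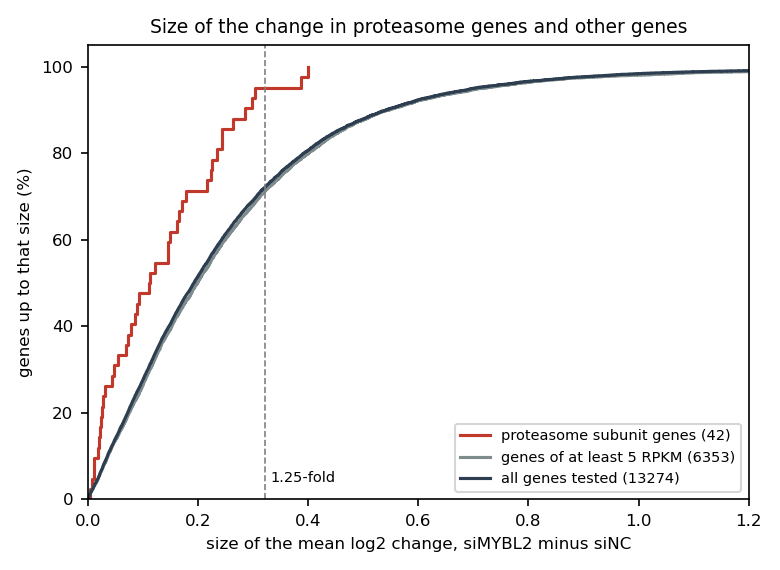
Share of genes (vertical axis, percent) whose mean log2 change between siMYBL2 and siNC is at most the size on the horizontal axis, for 42 proteasome subunit genes, 6353 genes of at least 5 RPKM and all 13274 genes tested. The curve of the proteasome genes lies above the others, and 40 of its 42 genes lie left of the dashed line at 1.25-fold. Ratios of opposite sign in the siMYBL2 libraries cancel in this mean, as for PSMD10.

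These values do not show that the genes were at the same level. The fit had 1 residual degree of freedom, and the 95% interval of the log2 change reached between 0.62 and 0.94 to either side of the estimate, with a median of 0.64, or 1.56-fold. All 42 intervals held 0. RPKM is a share of the assigned reads, of which all 43 genes together took 0.594% in siMYBL2-1 and 0.619% in siMYBL2-2, against 0.591% in siNC.

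Each siMYBL2 library was also set against siNC by itself, and both ratios share that 1 control library. In siMYBL2-1, 18 of the 42 genes were higher than in siNC and 24 lower, with a median log2 ratio of -0.05, and 45.3% of all genes tested were higher. In siMYBL2-2, 25 were higher and 17 lower, with a median of 0.04, and 48.0% of all genes were higher. On the log2(RPKM + 1) scale, at least 1.25-fold higher in siMYBL2-1 were PSMB10, PSME3, PSMF1 and PSMD2 (17.8% of all genes tested), and PSMA4 and PSMD10 were at least 1.25-fold lower (23.3% of all). By the same limit and scale in siMYBL2-2, PSMA5, PSMB5, PSMD12, PSMD6, PSMD5 and PSMD10 were at least 1.25-fold higher (11.1% of all), and PSME1 was at least 1.25-fold lower (14.6% of all). Plain RPKM ratios also put PSMD12 past the limit on the higher side and PSMB9 and PSMC2 on the lower side in siMYBL2-1, and PSMB9 on the lower side in siMYBL2-2. On the log2(RPKM + 1) scale no proteasome gene was 1.5-fold different from siNC in siMYBL2-2, where 2.55% of all genes were higher and 4.41% lower by that much, and PSMD10 alone was in siMYBL2-1, where 7.39% of all genes were higher and 8.75% lower. By plain RPKM ratios PSMB10 was also more than 1.5-fold higher in siMYBL2-1. Both siMYBL2 libraries lay above siNC for 12 genes and below it for 11, against 29.7% and 36.4% of all genes tested. For the other 19, siNC lay between them (33.9% of all).

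**Figure D2:**
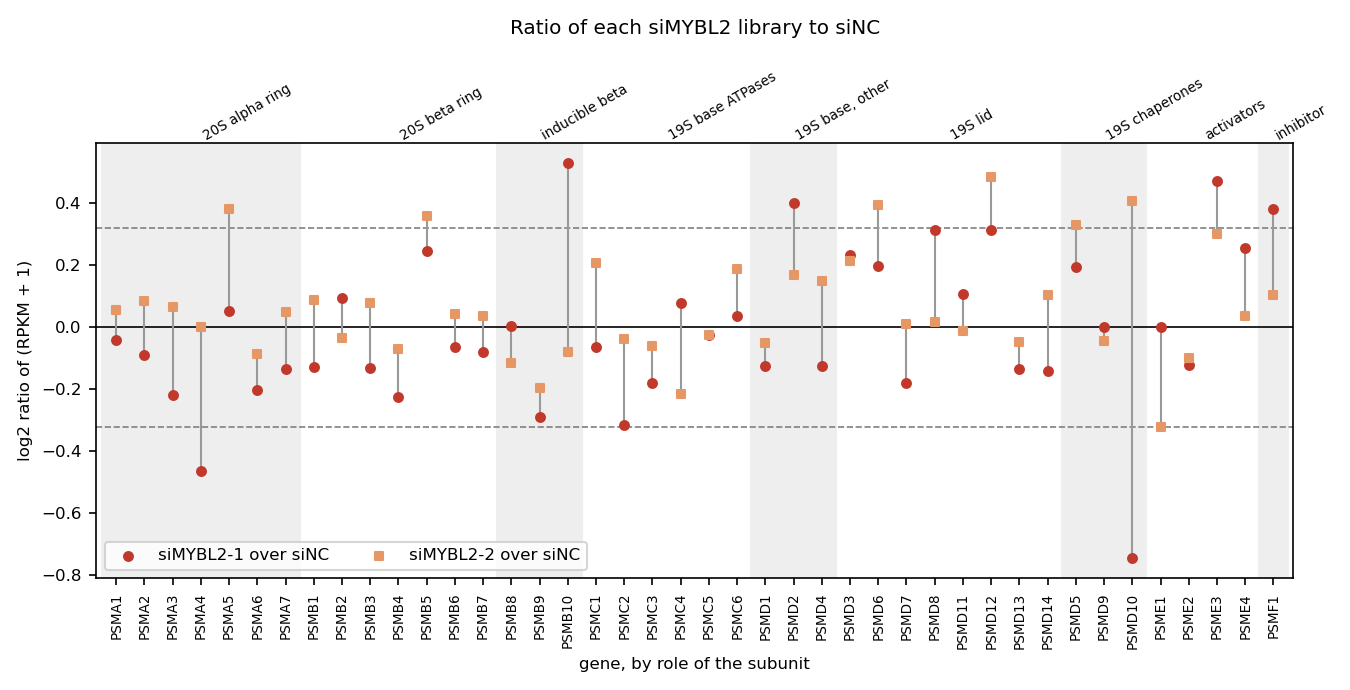
Log2 ratio of (RPKM + 1) to siNC (vertical axis) for each of 42 proteasome subunit genes, in siMYBL2-1 (circles) and siMYBL2-2 (squares), joined by a line and arranged by the role of the subunit. Dashed lines mark 1.25-fold. Most points lie between them, and PSMD10 has the widest gap, from -0.75 in siMYBL2-1 to 0.41 in siMYBL2-2.

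The alpha ring gates the entry of the core. Its genes had a median log2 ratio of -0.14 in siMYBL2-1, where 1 of 7 was above siNC (45.3% of all genes tested). In siMYBL2-2 the median was 0.06, and 5 of 7 were above siNC (48.0% of all). PSMA7 had the highest level of the ring, at 203 RPKM in siMYBL2-1 and 232 RPKM in siMYBL2-2, against 224 RPKM in siNC. PSMA4 (chromosome 15, 78540405 to 78552419, plus strand, hg38) was at 39.9 RPKM in siMYBL2-1 and 55.5 RPKM in siMYBL2-2, against 55.5 RPKM in siNC. It was thus low in siMYBL2-1 alone, at 0.719 times siNC (95% counting interval 0.702 to 0.736), while siMYBL2-2 was at 0.999 times siNC (0.978 to 1.02). PSMA5 was at 10.4 RPKM in siMYBL2-1 and 13.4 RPKM in siMYBL2-2, against 10.0 RPKM in siNC, so that siMYBL2-2 stood above the other libraries. PSMA6 was below siNC in both, at 34.0 and 37.0 RPKM in the siMYBL2 libraries and 39.3 RPKM in siNC. PSMA3 was at 25.2 and 31.0 RPKM in siMYBL2-1 and siMYBL2-2, and at 29.6 RPKM in siNC. For PSMA1 and PSMA2, whose levels were low, siNC lay between the siMYBL2 libraries: PSMA1 was at 3.18 and 3.48 RPKM in siMYBL2 and 3.30 RPKM in siNC, and PSMA2 at 6.22 and 7.14 RPKM in siMYBL2 and 6.68 RPKM in siNC. Other rows cover part of both, leaving 75.3% of the exonic bases of PSMA1 and 65.4% of those of PSMA2 to the gene alone.

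The constitutive beta ring carries the catalytic subunits PSMB5 (chymotrypsin-like), PSMB6 (caspase-like) and PSMB7 (trypsin-like). PSMB5 (chromosome 14, 23016543 to 23035230, minus strand) was at 27.3 RPKM in siMYBL2-1 and 29.6 RPKM in siMYBL2-2, averaging 28.5 ± 1.62 RPKM (SD, n = 2), against 22.9 RPKM in siNC. Both siMYBL2 libraries were above siNC, 1.19-fold (95% counting interval 1.12 to 1.28) and 1.29-fold (1.22 to 1.38), and the log2 change was 0.30 (SE 0.29, limma adjusted p 0.999). PSMB6 was at 15.7 and 17.0 RPKM in siMYBL2 and 16.5 RPKM in siNC, and PSMB7 at 65.7 and 71.3 RPKM in siMYBL2 and 69.4 RPKM in siNC. The transcripts of these 2 genes kept nearly the same proportion in every library: PSMB7 was 4.18 and 4.19 times PSMB6 in siMYBL2-1 and siMYBL2-2, and 4.22 times in siNC. PSMB5 was 1.74 times PSMB6 in either siMYBL2 library and 1.39 times in siNC. Such a ratio within a library does not depend on how libraries are scaled.

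The structural beta subunits were near siNC. PSMB4 was the one below siNC in both siMYBL2 libraries, at 5.87 and 6.66 RPKM in siMYBL2 and 7.04 RPKM in siNC. PSMB1 was at 25.8 and 30.1 RPKM in siMYBL2 and 28.3 RPKM in siNC, and PSMB3 at 24.0 and 28.0 RPKM in siMYBL2 and 26.4 RPKM in siNC. PSMB2 had the lowest level of the core, at 2.37 and 2.08 RPKM in siMYBL2 and 2.15 RPKM in siNC. Although the core holds its subunits in equal numbers, the highest and lowest transcript levels of the 14 constitutive genes, PSMA7 and PSMB2, stood 85.8-fold apart in siMYBL2-1, 111-fold in siMYBL2-2 and 104-fold in siNC. These levels are per base of all exons listed for a gene, between 1179 and 10241 bases for the 43 genes, so bases that few transcripts use lower them.

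**Figure D3:**
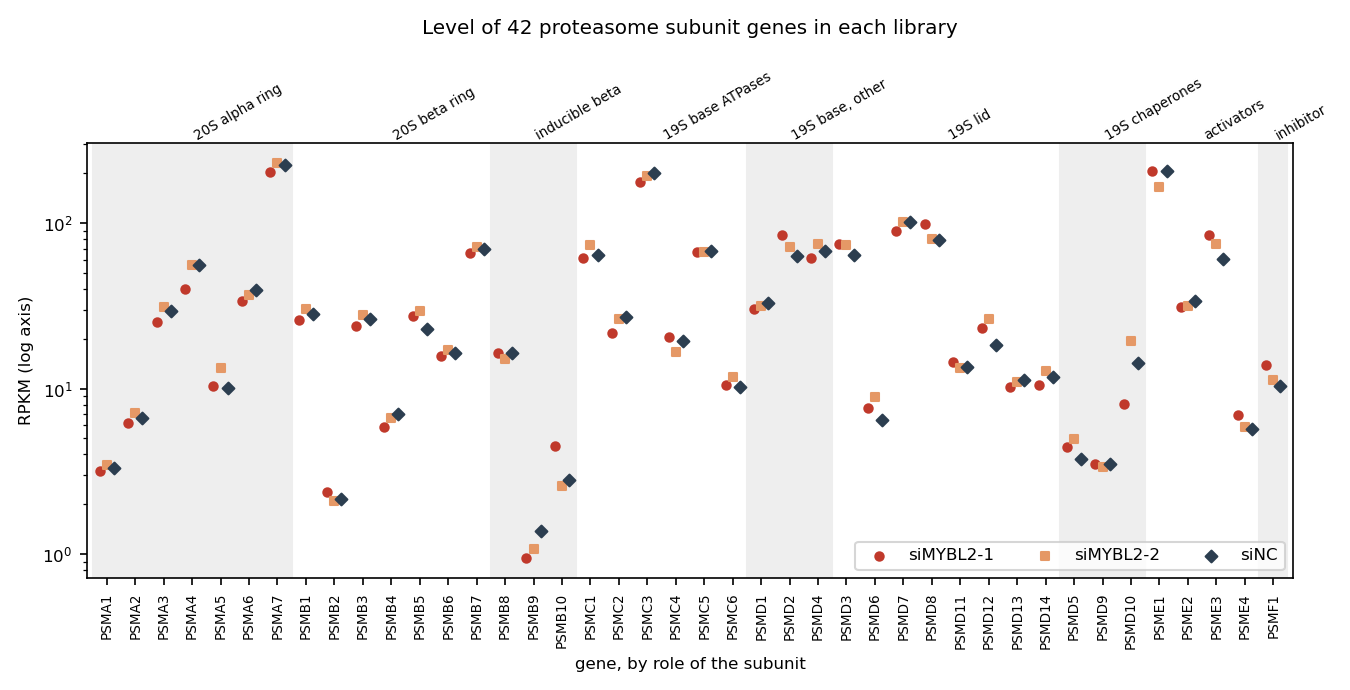
RPKM (log axis) of 42 proteasome subunit genes in siMYBL2-1 (circles), siMYBL2-2 (squares) and siNC (diamonds), by the role of the subunit, with 1 library per point. Levels differ far more between genes than between libraries, with PSMA7 at 203, 232 and 224 RPKM and PSMB2 at 2.37, 2.08 and 2.15 RPKM.

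Inducible subunits take the place of the catalytic ones in the immunoproteasome, which interferon and immune cells use for antigen processing. PSMB8 replaces PSMB5, PSMB9 replaces PSMB6 and PSMB10 replaces PSMB7. PSMB8 (chromosome 6, 32840717 to 32844703, minus strand) was at 16.5 RPKM in siMYBL2-1 and 15.1 RPKM in siMYBL2-2, against 16.4 RPKM in siNC. PSMB9, beside it on the opposite strand, was at 0.942 and 1.07 RPKM in siMYBL2, on 121 and 152 reads, against 1.37 RPKM on 170 reads in siNC. PSMB9 was thus low everywhere and lowest in the siMYBL2 libraries, at 0.685 (95% counting interval 0.538 to 0.870) and 0.780 (0.622 to 0.976) times siNC, and its log2 change was -0.24 (SE 0.28, limma adjusted p 0.999), or -0.42 with a pseudocount of 0.1 and -0.45 by limma-voom. PSMB10 was at 4.48 RPKM in siMYBL2-1, from 347 reads, and at 2.58 RPKM in siMYBL2-2, from 221 reads, against 2.79 RPKM, from 208 reads, in siNC. Its siMYBL2-1 value stood 1.61-fold above siNC (counting interval 1.35 to 1.92), while siMYBL2-2 was at 0.926 times siNC (0.763 to 1.12). Another row on the same strand covers part of PSMB10, which keeps 65.2% of its exonic bases to itself, and PSMB8-AS1 covers part of PSMB8 and PSMB9, which keep 78.8% and 94.3%.

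Set against the subunit it replaces, PSMB8 was at 0.603 and 0.510 times PSMB5 in siMYBL2-1 and siMYBL2-2, and at 0.718 times in siNC. PSMB9 was at 0.0600 and 0.0630 times PSMB6 in siMYBL2, and at 0.0835 times in siNC. Both ratios were thus lower in each siMYBL2 library than in siNC. PSMB8 itself was at 1.00 and 0.919 times siNC in siMYBL2-1 and siMYBL2-2, while PSMB5 was at 1.19 and 1.29 times. PSMB10 went another way, at 0.0682 and 0.0362 times PSMB7 in siMYBL2, and at 0.0402 times in siNC. PSMB11, the subunit of thymic cortical cells, had 2 reads in siMYBL2-1, 0 in siMYBL2-2 and 2 in siNC and was not tested. At these depths 3 reads on 1 kilobase of exon correspond to 0.0717 and 0.0650 RPKM in siMYBL2 and 0.0745 RPKM in siNC.

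**Figure D4:**
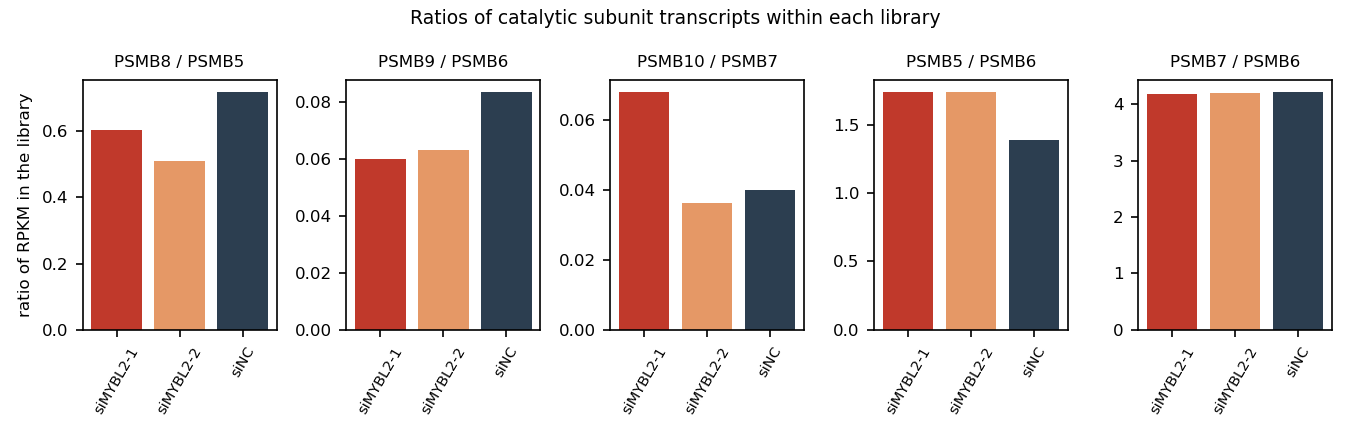
Ratio of the RPKM of 2 catalytic subunit genes within each library (vertical axis, from 0, with its own scale in each panel), 1 bar per library. PSMB7 over PSMB6 is level at 4.18, 4.19 and 4.22, PSMB5 over PSMB6 is 1.74 in both siMYBL2 libraries and 1.39 in siNC, and PSMB10 over PSMB7 is highest in siMYBL2-1.

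The 6 ATPases of the 19S base unfold the substrate and open the gate of the core. The median over these genes was -0.04 for the log2 ratio of siMYBL2-1 to siNC and -0.03 for that of siMYBL2-2. PSMC5 was the steadiest, at 66.8 and 66.7 RPKM in siMYBL2 and 68.0 RPKM in siNC. PSMC3, the most abundant of the 6, was at 176 and 192 RPKM in siMYBL2 and 200 RPKM in siNC. PSMC2 was at 21.6 RPKM in siMYBL2-1 and 26.4 RPKM in siMYBL2-2, against 27.1 RPKM in siNC. These last 3 were thus below siNC in both siMYBL2 libraries, and PSMC2 was the lowest of them in siMYBL2-1, at 0.796 times siNC (95% counting interval 0.759 to 0.834). PSMC6 was above siNC in both, at 10.5 and 11.8 RPKM in siMYBL2 and 10.2 RPKM in siNC. PSMC4 was at 20.5 and 16.5 RPKM in siMYBL2 and 19.4 RPKM in siNC. PSMC1 was at 61.1 and 74.1 RPKM in siMYBL2 and 64.0 RPKM in siNC, so siNC lay between the siMYBL2 libraries for both. The level of PSMC1 is uncertain, as NRDE2 on the opposite strand covers most of its exons, only 24.2% of its exonic bases are its own, and GENCODE release 29 lists 13 pseudogenes named after it.

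Of the other base subunits, PSMD1 and PSMD2 are the scaffolds on which substrates and shuttle proteins dock, and PSMD4 is a ubiquitin receptor. PSMD2 (chromosome 3, 184298709 to 184309054, plus strand) was at 84.2 RPKM in siMYBL2-1 and 71.4 RPKM in siMYBL2-2, averaging 77.8 ± 9.01 RPKM (SD, n = 2), against 63.5 RPKM in siNC. It stood 1.33-fold and 1.13-fold above siNC, and its log2 change was 0.29 (SE 0.29, limma adjusted p 0.999). PSMD1 was slightly below siNC in both, at 30.1 and 31.7 RPKM in siMYBL2 and 32.9 RPKM in siNC. PSMD4 was at 61.8 and 74.9 RPKM in siMYBL2 and 67.5 RPKM in siNC, so its libraries lay on either side of siNC.

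The lid removes ubiquitin chains and holds the cap together. The 8 lid genes had a median log2 change of 0.11, with median ratios of 0.15 in siMYBL2-1 and 0.06 in siMYBL2-2, and 4 of the 8 were above siNC in both, as were 29.7% of all genes tested. SEM1, a lid subunit outside the naming rule, was below siNC in both, and with it the median over 9 genes was 0.05. PSMD12 (chromosome 17, 67337916 to 67366627, minus strand) was at 23.2 RPKM in siMYBL2-1 and 26.2 RPKM in siMYBL2-2, averaging 24.7 ± 2.14 RPKM (SD, n = 2), against 18.4 RPKM in siNC. This was the largest log2 change of the 42 genes, 0.40 (SE 0.29, 95% interval -0.24 to 1.04, limma adjusted p 0.999), at 1.26-fold (95% counting interval 1.21 to 1.31) and 1.42-fold (1.37 to 1.48) the siNC level. PSMD6 had the same order of libraries, at 7.59 and 8.84 RPKM in siMYBL2 and 6.49 RPKM in siNC. PSMD3 was at 75.1 and 74.1 RPKM in siMYBL2 and 63.7 RPKM in siNC, so the siMYBL2 libraries were nearly level with each other and both above siNC, and the log2 change was 0.22 (SE 0.29, limma adjusted p 0.999). PSMD8 was at 98.4 RPKM in siMYBL2-1 and 79.7 RPKM in siMYBL2-2, against 78.9 RPKM in siNC. PSMD8 is among the 4 above siNC in both, but in siMYBL2-2 only by 1.01-fold (95% counting interval 0.984 to 1.04).

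The remaining lid genes were close to siNC. PSMD14, the deubiquitinase of the lid, was at 10.5 and 12.7 RPKM in siMYBL2 and 11.7 RPKM in siNC. PSMD7, its partner, was at 89.1 and 102 RPKM in siMYBL2 and 101 RPKM in siNC, and PSMD11 at 14.5 and 13.3 RPKM in siMYBL2 and 13.4 RPKM in siNC. For these 3, siNC lay between the siMYBL2 libraries. PSMD13 was below siNC in both, at 10.2 and 10.9 RPKM in siMYBL2 and 11.3 RPKM in siNC.

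Among the chaperones that assemble the 19S base, PSMD10 (gankyrin, also known as an oncoprotein in liver) differed most between the libraries of all 42 genes. PSMD10 (chromosome X, 108084207 to 108091618, minus strand) was at 8.10 RPKM in siMYBL2-1, from 833 reads, and at 19.3 RPKM in siMYBL2-2, from 2189 reads, against 14.3 RPKM, from 1414 reads, in siNC. The 2 knockdown libraries thus lay on opposite sides of siNC, at 0.567 (95% counting interval 0.520 to 0.618) and 1.35 (1.26 to 1.44) times its level, and siMYBL2-1 was at 0.420 (0.388 to 0.455) times siMYBL2-2. It was the one proteasome gene at least 1.5-fold lower in siMYBL2-1 than in siMYBL2-2, as were 6.23% of all genes tested, and PSMB10 was the one at least 1.5-fold higher (6.57% of all). By 1.25-fold, PSMA5 and PSMA4 were also lower in siMYBL2-1 than in siMYBL2-2 (19.2% of all) and PSME1 higher (17.1% of all). The log2 change of -0.17 (SE 0.42, limma adjusted p 0.999) is therefore the mean of ratios with opposite signs, and it has no common direction. PSMD5 was above siNC in both, at 4.43 and 4.96 RPKM in siMYBL2 and 3.74 RPKM in siNC, and PSMD9 was at 3.48 and 3.34 RPKM in siMYBL2 and 3.48 RPKM in siNC.

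Activators bind the ends of the core in place of the 19S cap. PSME3, which encodes the nuclear activator, had the second largest log2 change, 0.39 (SE 0.29, 95% interval -0.26 to 1.03, limma adjusted p 0.999). It (chromosome 17, 42824385 to 42843758, plus strand) was at 84.2 RPKM in siMYBL2-1 and 74.7 RPKM in siMYBL2-2, averaging 79.5 ± 6.72 RPKM (SD, n = 2), against 60.4 RPKM in siNC. Both siMYBL2 libraries were above siNC, 1.39-fold (95% counting interval 1.36 to 1.43) and 1.24-fold (1.21 to 1.27). PSME1 and PSME2 form the interferon-inducible activator. PSME1 was at 207 RPKM in siMYBL2-1 and 165 RPKM in siMYBL2-2, against 207 RPKM in siNC, so that siMYBL2-2 alone was low, at 0.798 times siNC (0.779 to 0.816). PSME2 was at 30.9 and 31.4 RPKM in siMYBL2 and 33.7 RPKM in siNC. The ratio of PSME1 to PSME2 was 6.69 and 5.25 in the siMYBL2 libraries and 6.13 in siNC. PSME4, the activator linked to histone degradation, was at 6.95 and 5.83 RPKM in siMYBL2 and 5.66 RPKM in siNC. PSMF1, which encodes an inhibitor of the core in vitro, was at 13.9 and 11.3 RPKM in siMYBL2 and 10.4 RPKM in siNC, above siNC in both.

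Between the siMYBL2 libraries, 13 of the 14 constitutive core genes were lower in siMYBL2-1 than in siMYBL2-2, and PSMB2 was higher. This compares 1 library with 1 and has no test. The share of all genes tested that were lower was not counted, and their median, given next, was also negative. In log2, siMYBL2-1 over siMYBL2-2 had a median of -0.17 over the core genes and -0.12 over the 17 subunits of the 19S base and lid, beside -0.02 over all genes tested. The summed level of the core genes was 489 RPKM in siMYBL2-1 and 564 RPKM in siMYBL2-2, against 541 RPKM in siNC, so siNC lay between them. The sum over the 19S genes was 862 and 893 RPKM in siMYBL2 and 858 RPKM in siNC.

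Genes that assemble, regulate or feed the proteasome were read from the same fit, and none passed the threshold in any of the 5 lists. Of the core assembly chaperones 4 of 5 were tested, with a median log2 change of 0.04. POMP, which completes the core, was at 51.8 and 75.7 RPKM in siMYBL2 and 55.3 RPKM in siNC, PSMG2 at 1.40 and 1.57 RPKM in siMYBL2 and 1.25 RPKM in siNC, PSMG3 at 9.35 and 9.74 RPKM in siMYBL2 and 9.99 RPKM in siNC, and PSMG1 at 8.02 and 8.54 RPKM in siMYBL2 and 8.91 RPKM in siNC. POMP thus stood high in siMYBL2-2 alone.

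The list of 13 other subunits, receptors and deubiquitinases had a median log2 change of 0.09. SEM1 (SHFM1 in the table), a small lid subunit, was at 24.6 and 35.1 RPKM in siMYBL2 and 46.2 RPKM in siNC, which is a difference of -0.63 in log2 (SE 0.32, limma adjusted p 0.999). UBE3C, a ubiquitin ligase of the proteasome, was at 11.9 and 10.3 RPKM in siMYBL2 and 7.06 RPKM in siNC, a log2 change of 0.58, and the shuttle protein gene RAD23B was at 94.5 and 76.8 RPKM in siMYBL2 and 62.3 RPKM in siNC. SEM1 was thus below siNC, and UBE3C and RAD23B above it, in both siMYBL2 libraries.

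In the list of the NFE2L1 pathway the median log2 ratio over 11 genes was 0.36 in siMYBL2-1 and -0.08 in siMYBL2-2. NFE2L1 itself was at 90.6 and 92.7 RPKM in siMYBL2 and 105.9 RPKM in siNC, and its relative NFE2L2 at 9.08 and 10.7 RPKM in siMYBL2 and 11.9 RPKM in siNC. Both factors were below siNC in both siMYBL2 libraries. The small MAF partners were high in siMYBL2-1 alone, with MAFF at 13.0 and 4.13 RPKM in siMYBL2 and 4.45 RPKM in siNC, and MAFK at 9.12 and 3.43 RPKM in siMYBL2 and 3.53 RPKM in siNC.

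Of 7 ubiquitin and activating enzyme genes, with a median log2 change of -0.09, UBB was at 156 and 220 RPKM in siMYBL2 and 209 RPKM in siNC, RPS27A at 61.8 and 62.5 RPKM in siMYBL2 and 67.0 RPKM in siNC, and UBE2D3 at 12.4 and 14.8 RPKM in siMYBL2 and 12.7 RPKM in siNC. Partners of the immunoproteasome in class I antigen loading had a median of -0.19 over the 11 genes tested of 12, with 7 below siNC in both siMYBL2 libraries (36.4% of all genes tested). B2M was at 20.3 and 24.0 RPKM in siMYBL2 and 28.0 RPKM in siNC, and TAPBP at 2.81 and 1.80 RPKM in siMYBL2 and 3.00 RPKM in siNC. TAP2 was at 12.5 and 7.84 RPKM in siMYBL2 and 8.16 RPKM in siNC. All 5 lists together held no gene with an unadjusted p under 0.05.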

How the data were processed

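Poly(A) RNA-seq libraries of 5637 cells were analysed, 2 of the siMYBL2 group and 1 of siNC. The authors deposited RPKM values per gene with exon intervals and exonic length, per the file headers. The submitters' processing notes name cutadapt 1.9, HISAT2 2.0.4, StringTie 1.3.4d and the build hg38, with no role or order. How reads were counted, with which strand setting and annotation, is not given in the sources used here, so reads of overlapping genes on opposite strands cannot be told apart. Beside the overlaps named above, other rows cover part of PSMD7, PSMD9, PSMC5, PSMA6 and PSMD1. These keep 69.3%, 77.4%, 80.5%, 85.9% and 89.2% of their exonic bases to themselves, so the same limit holds for their levels. In each library 100% of RPKM values times length were multiples of a common unit (tolerance 0.001 reads), which recovered the reads behind each value. The assigned reads were 41818861 in siMYBL2-1, 46177658 in siMYBL2-2 and 40259436 in siNC. Counting intervals are exact conditional binomial intervals at 95% on these reads. Because PCR reads lacking molecular identifiers are not independent molecules, these intervals cover at most counting error. Many low counts, though not all, were even, as for PSMC1P9 (28 and 42 reads in siMYBL2, 54 in siNC) and PSME2P2 (2 and 6 reads in siMYBL2, 14 in siNC). Whether both mates of a fragment were counted as separate reads is not given and was not tested. If they were, the counting intervals are too narrow.

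The test was limma-trend (limma 3.58.1, R 4.3.3) on log2(RPKM + 1) over 13274 genes averaging 1 RPKM or more, with Benjamini-Hochberg adjustment over all of them and a threshold of 0.05. It had 1 residual degree of freedom and 10.2 in total after moderation, and siNC is assumed to vary like the siMYBL2 pair. Folds with counting intervals are plain ratios of RPKM. The members and lists were chosen with earlier results of these data known. Every proteasome gene of at least 1 RPKM is named, and of each other list the 2 highest and 2 lowest by log2 change, some of which are not reported here. Fold limits of 1.25 and 1.5, the pairs set against PSMB6 and the promoters printed were chosen after values were seen. Of 74 fixed list and marker symbols, 73 matched a row, and SEM1 and ECPAS did so by an older symbol. TYROBP and PSMA8 were not analysed here. Alternatives were another pseudocount, other filters, other scalings, limma-voom, robust moderation and leaving out either siMYBL2 library.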

Additional observations from a re-analysis of the deposited data

How the results depend on the processing

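No proteasome gene passed the threshold under any of the 7 other settings of the test, where the smallest adjusted p by limma was 0.762. Of 288 values, 280 kept their direction. Robust moderation and both other filters leave the log2 change of a gene as it is, so its direction could not turn under those settings. Scaling by the median ratio turned the sign of 8 members, all near 0, to PSMD9 0.00608, PSMB6 0.0252, PSMB3 0.00926, PSMC5 0.0119, PSMD14 0.0161, PSMB1 0.0161, PSMA2 0.0291 and PSMB7 0.0160, and of UBQLN4 (0.0256) and PAAF1 (0.0201). It also put the median of the members at 0.02, against -0.03 to -0.02 under the other settings. Without siMYBL2 replicate 1 that median was 0.04, and without siMYBL2 replicate 2 it was -0.05, so its sign rests on which siMYBL2 library is kept. Leaving out a siMYBL2 library leaves 1 library against 1 and no test, so no counts of calls were made there. Over all genes, the 1 call became 0 with no filter, above 5 RPKM, with either other scaling and with robust moderation (259 to 2364 genes had an unadjusted p under 0.05 there), while limma-voom on recovered reads made 10 calls (3 higher, 7 lower), MYBL2 among them (adjusted p 0.00811). The cause was not tested. No paired analysis was possible because siNC has 1 library and shares no second replicate number with siMYBL2. With 1 siNC library, a deviation of that library moves every ratio given here. Low members such as PSMB9, with 121 to 170 reads, are limited by depth.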

Other observations

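The table also holds 22 rows of autosomal or X-linked pseudogenes and 4 of antisense transcripts named after proteasome genes. Of the pseudogenes, 19 had at most 10 reads in every library and support no statement on level. The other 3 were PSMC1P9, with 28 and 42 reads in siMYBL2 and 54 in siNC, PSME2P2, with 2 and 6 reads in siMYBL2 and 14 in siNC, and PSMC1P1. PSMC1P1, a copy of the ATPase gene PSMC1 on chromosome 3, was the highest, at 11.2 and 14.0 RPKM in siMYBL2, from 618 and 853 reads, against 13.3 RPKM in siNC, from 706 reads. How reads that fit both PSMC1 and PSMC1P1 were counted is not given, so neither level is certain. PSMD5-AS1 was at 1.75 and 2.76 RPKM in siMYBL2 and 3.26 RPKM in siNC, below siNC in both, while PSMD5 was above siNC in both. PSMA3-AS1 was also below siNC in both, at 4.11 and 4.74 RPKM in siMYBL2 and 5.54 RPKM in siNC, and its neighbour PSMA3 was not. The remaining antisense rows were PSMB8-AS1, at 1.31 and 1.13 RPKM in siMYBL2 and 1.34 RPKM in siNC, and PSMD6-AS2, at 0.584 and 0.459 RPKM in siMYBL2 and 0.566 RPKM in siNC. Of all genes tested, 36.4% were below siNC in both siMYBL2 libraries.

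The 12 tested members with a pseudogene named after them in GENCODE release 29 had a median level of 34.4 RPKM over the 3 libraries, and the 30 without one had 14.9 RPKM. Their median log2 changes were -0.02 and -0.01. Of the constitutive core genes with the lowest levels, PSMB2, PSMA1 and PSMB4 have no such copy listed, and PSMA2 has 3. Outside the core, PSMB9, PSMB10, PSMD9, PSMD5 and PSME4 were also low and have none listed. Whether such copies change the counted level of a gene was not tested.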
